A study of Mus musculus with 12 samples.

Results

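The major histocompatibility complex (MHC) genes of the mouse carry symbols that start with H2-. The set described here holds every gene of the count table with such a symbol, without the pseudogene symbols that end in -ps, together with B2m, Tap1, Tap2, Tapbp, Cd74, Ciita and Nlrc5. These are 49 of the 38924 genes of the table, followed in interscapular brown fat across 3 housing temperatures. They fall into 2 classical and 27 non-classical class I heavy chain genes, 4 genes of class I loading, 4 classical and 5 non-classical class II genes, the class II chaperone Cd74, the transactivators Ciita and Nlrc5, and 4 other H2 symbols.

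Class I molecules are made of a heavy chain and beta-2-microglobulin and show peptides from inside the cell to CD8 T cells and natural killer cells, on nearly every cell with a nucleus. Class II molecules are pairs of an alpha and a beta chain, made mainly by dendritic cells, macrophages and B cells, and show peptides from taken-up protein to CD4 T cells. Nlrc5 drives transcription of class I genes and Ciita that of class II genes, and interferon-gamma raises both sets. C57BL/6 mice carry a defective E alpha gene, so the product of H2-Eb1 does not reach their cell surface as an E molecule. Brown fat burns fuel to make heat and holds macrophages and other leukocytes beside its adipocytes.

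RNA was sequenced from the interscapular pad of C57BL/6J mice, all wild type, as 1 library per mouse and 4 mice per group. The mice were 14 weeks old and had spent the last 4 weeks at 30 °C, which is thermoneutral for a mouse, at 22 °C or at 6 °C. All groups were thus acclimated, none carried a transgene or received a drug per the labels, and the comparisons ask how the tissue differs between temperatures. At 30 °C, 2 of the 4 libraries match no numbered mouse of the labels and are called mice A and B. Library totals ranged from 18290162 to 32513051 counts, except for 86438386 counts in 22 °C mouse 3. The markers of brown adipocytes had a summed level between 10576 and 25011 CPM (a gene's share of a library's counts after TMM scaling) over the libraries. A large part of this sum was Fabp4, with means of 5961, 9719 and 8876 CPM at 30, 22 and 6 °C. Ppargc1a and Dio2 stood at means of 38.5 and 45.6 CPM at 30 °C. Ucp1, the uncoupling protein that makes heat, stood at a mean of 1469, 3373 and 10439 CPM at 30, 22 and 6 °C.

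Before the values, the promoters of H2-K1, H2-Q7 and H2-Q10 are shown. Each sequence is the 250 bases before the RefSeq start in build GRCm38.p6, 5′ to 3′ on the strand of the gene. H2-K1 lies at chr17:34000348-34000597 on the minus strand, H2-Q7 at chr17:35438905-35439154 and H2-Q10 at chr17:35469839-35470088, both on the plus strand. Capitals mark the palindromic enhancer A, which NF-kappa-B binds, or its part (in H2-Q7). They also mark the stretch TTTCACTTC (read as GAAGTGAAA on the other strand), the CREB site core TGACG, the NF-Y site CCAAT (or its complement ATTGG on the other strand) and the TATA box TATAAA, of which TTTCACTTC was chosen after the sequences had been read. Both strands were searched, and the part of enhancer A lies inside the whole where both match.
H2-K1: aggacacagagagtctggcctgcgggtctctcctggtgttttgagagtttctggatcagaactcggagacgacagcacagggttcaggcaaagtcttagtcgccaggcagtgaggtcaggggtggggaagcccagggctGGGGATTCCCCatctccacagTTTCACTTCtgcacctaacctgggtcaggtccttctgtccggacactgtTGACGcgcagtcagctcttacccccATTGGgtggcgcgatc
H2-Q7: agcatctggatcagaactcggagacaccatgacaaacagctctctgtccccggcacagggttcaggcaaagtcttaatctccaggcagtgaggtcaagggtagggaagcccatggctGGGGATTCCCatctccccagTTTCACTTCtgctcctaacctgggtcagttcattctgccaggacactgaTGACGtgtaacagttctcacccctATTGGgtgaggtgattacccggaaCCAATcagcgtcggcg
H2-Q10: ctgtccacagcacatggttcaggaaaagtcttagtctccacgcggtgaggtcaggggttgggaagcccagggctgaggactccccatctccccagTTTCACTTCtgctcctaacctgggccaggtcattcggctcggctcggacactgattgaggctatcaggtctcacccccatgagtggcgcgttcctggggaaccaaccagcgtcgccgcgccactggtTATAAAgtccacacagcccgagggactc

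The H2-Q10 window held TTTCACTTC and TATAAA but neither enhancer A nor its part, and neither CCAAT nor TGACG on either strand. H2-K1 and H2-D1 held enhancer A, TTTCACTTC, TGACG and CCAAT, and H2-D1 held TATAAA as well. H2-Q7 held the part of enhancer A, TTTCACTTC, TGACG and CCAAT. Enhancer A or its part began 111 bases before the start in H2-K1, 133 in H2-Q7 and 171 in H2-D1, where TATAAA began 26 bases before it. The windows thus end at different points of these promoters. A TATAAA past the end of the H2-K1 or H2-Q7 window would be missed. Neither enhancer A nor its part stood in the windows of H2-Q4, H2-M3, H2-T22 and H2-T23. These genes were lower at 6 °C than at 30 °C. H2-Q4 held TTTCACTTC, the TATA box and the CREB and NF-Y motifs. H2-M3 held TTTCACTTC, TGACG and CCAAT, H2-T22 held TGACG and CCAAT, and H2-T23 held CCAAT. H2-Q6 held enhancer A, TTTCACTTC and CCAAT. Any part of these motifs in the changes was not tested. Over the aligned stretch the H2-Q10 window was identical to that of H2-K1 at 82.7% of 191 alignment columns and to that of H2-D1 at 82.1% of 252. Of the 32851 windows of the same length in the RefSeq table, 0.0304% held the whole enhancer A, 0.289% its part, 0.402% GAAGTGAAA, 17.8% TGACG, 33.8% CCAAT and 12.4% TATAAA. Of the 49 genes 34 have a window in that table, and 3, 4, 7, 14, 30 and 13 of them held these motifs, in the same order. Searches for interferon response elements with a spacing of 2 or of 3 bases and for the STAT site TTCNNNGAA matched 3, 1 and 3 of the 34 windows, against 2.98%, 2.38% and 7.02% of all. The windows with the spacing of 2 bases were those of B2m, H2-T22 and H2-T23. A match is a run of letters, and its use in this tissue was not measured.

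Class II promoters are known for an X box and a Y box, to which the RFX, CREB and NF-Y factors bind before Ciita joins them. The windows of H2-Aa (chr17:34287824-34288073, minus strand) and H2-Eb1 (chr17:34305617-34305866, plus strand) are shown with TGACG, the core of the X2 box, and CCAAT, the core of the Y box, in capitals.
H2-Aa: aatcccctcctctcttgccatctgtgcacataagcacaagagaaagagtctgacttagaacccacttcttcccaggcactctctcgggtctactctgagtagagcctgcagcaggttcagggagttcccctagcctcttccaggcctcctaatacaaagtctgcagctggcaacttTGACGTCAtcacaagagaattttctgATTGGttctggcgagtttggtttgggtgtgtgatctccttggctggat
H2-Eb1: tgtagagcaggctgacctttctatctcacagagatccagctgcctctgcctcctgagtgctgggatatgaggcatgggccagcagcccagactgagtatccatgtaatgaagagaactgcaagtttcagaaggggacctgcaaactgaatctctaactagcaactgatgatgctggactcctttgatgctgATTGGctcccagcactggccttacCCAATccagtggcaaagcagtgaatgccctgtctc
CCAAT or its complement stood in the window of all 3 classical class II genes that have one in the table, and TGACG in that of H2-Aa only among these 3. In H2-Aa the letters TGACGTCA hold the TGACG motif on both strands. The class I loading genes B2m, Tap1 and Tapbp each held CCAAT as well.

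Of the 49 genes 30 passed the filter on low counts and were tested. Of these 29 were over the filter's value in all 12 libraries. The other, H2-DMb2, passed through its 30 °C libraries, so its calls as lower, here and below, were in part set by the filter. At 6 °C against 30 °C, 26 of them were lower and 1, H2-Q10, was higher, by edgeR's quasi-likelihood test at an adjusted p under 0.05. Across all 14870 genes tested 56.8% were called in this comparison, 25.3% higher and 31.5% lower. The median log2 fold change was -1.34 over the 30 genes and -0.11 over all genes. H2-T24, H2-Ke2 and H2-Ke6 did not pass. Without mice A and B the calls of Tapbp, H2-K2, H2-Ob and H2-DMb2 were lost, and the other 23 of these genes were still called.

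By the median over the 30 genes, though not for each of them, most of the difference was already present between 30 and 22 °C. There 22 of the 30 genes were lower and 2, H2-Q10 and H2-Ke2, were higher, against 44.6% of all genes called, and the median was -1.17 over the 30 genes and -0.02 over all. Between 22 and 6 °C 6 genes were lower (B2m, Tap2, H2-D1, H2-K1, H2-Aa and H2-Q4) and 1, H2-T24, was higher, against 34.2% of all genes called, with a median of -0.33 over the 30 genes. In the 2 steps together, 17 genes fell from 30 to 22 °C and were not called from 22 to 6 °C, and 5 fell in both steps. Tap2 was the gene not called in the first step and lower in the second. The groups' ranges did not overlap for 24 genes between 30 and 6 °C, 23 between 30 and 22 °C and 9 between 22 and 6 °C, against 51.5%, 38.9% and 34.9% of all genes.

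The comparisons of 6 and of 22 °C against 30 °C share the 30 °C libraries, and the 2 steps share those of 22 °C. A test of the difference of the steps (the second step less the first, on the log2 scale) called 9 of the 30 genes higher and 1, H2-Q10, lower, against 29.3% of all genes called. The 9 were H2-T23, H2-Q4, H2-Q7, H2-DMa, H2-DMb1, H2-DMb2, H2-Ob, Nlrc5 and Ciita. In whole tissue, fewer cells of a type and less RNA per cell cannot be told apart.

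**Figure D1:**
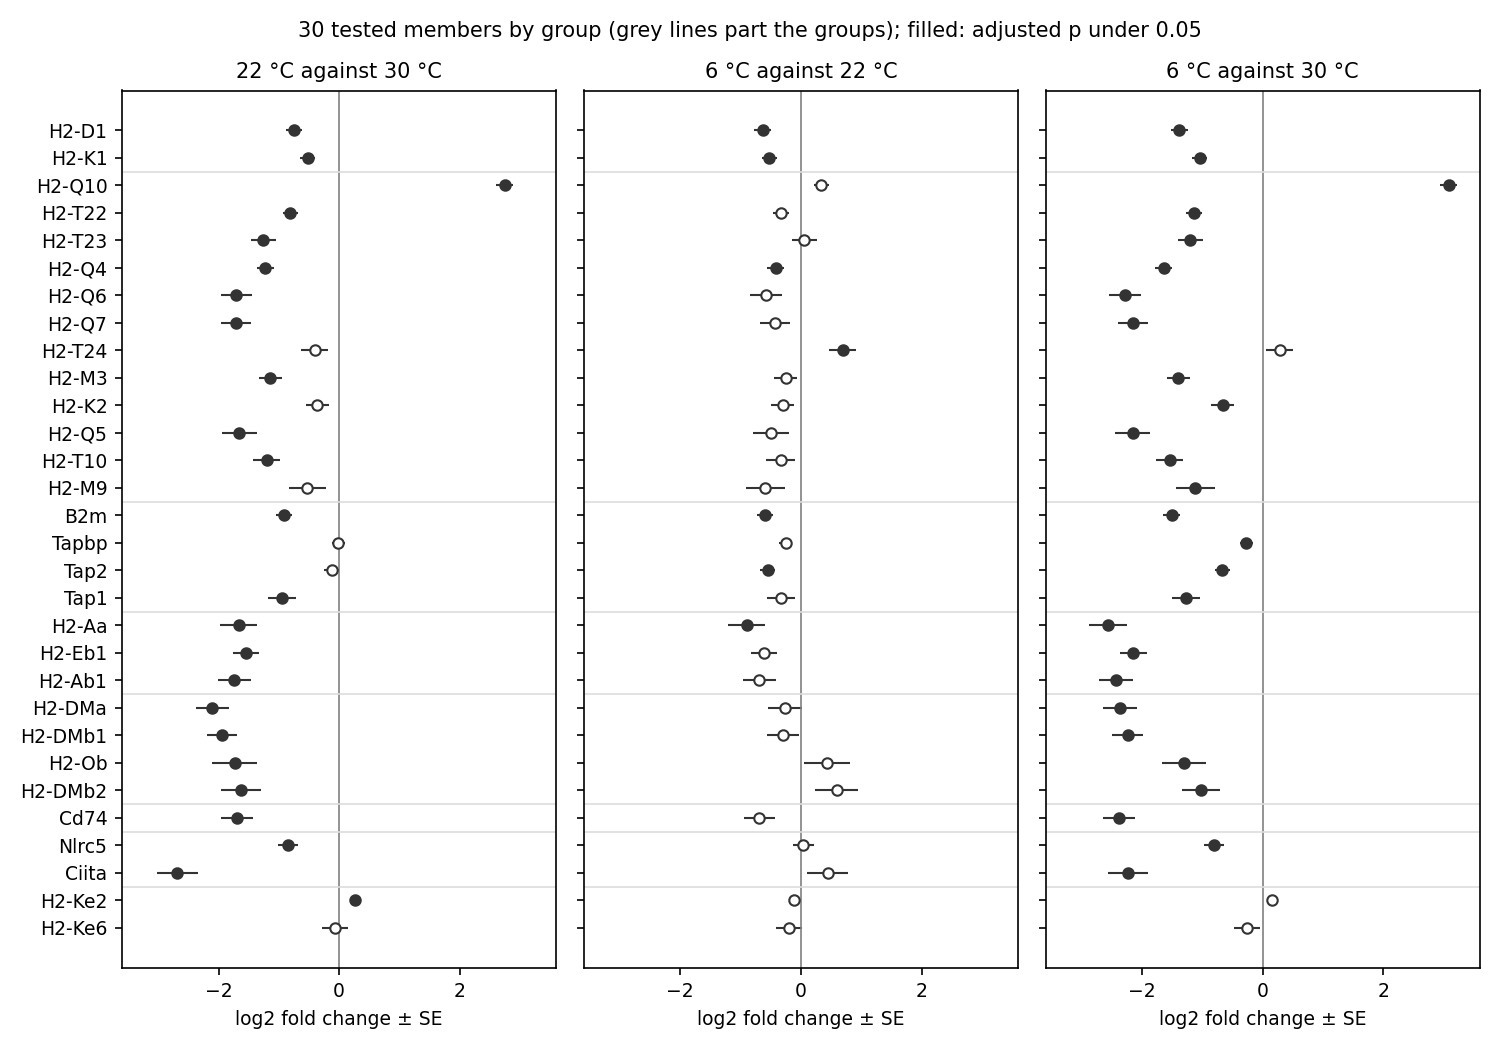
Log2 fold change with its SE for the 30 tested genes, 1 row per gene, in the 3 comparisons of temperatures (4 libraries per group, edgeR). Filled points passed an adjusted p of 0.05, and grey lines part the groups of genes. H2-Q10 lies farthest to the right at 22 and 6 °C against 30 °C, at 2.74 and 3.08, with H2-Ke2 called at 0.26 at 22 °C, while 22 and 26 genes lie on the left as called.

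B2m, on chromosome 2 from 122147686 to 122153083, encodes the light chain shared by all class I molecules. Its level was 939, 832, 1169.8 and 948 CPM at 30 °C (mice 1, 2, A and B, the order kept below), 491, 489, 556 and 517 CPM at 22 °C (mice 1 to 4) and 342, 427, 319 and 276 CPM at 6 °C (mice 1 to 4). The 3 groups did not overlap. B2m fell by 0.92 on the log2 scale from 30 to 22 °C (SE 0.13, adjusted p = 0.000155) and by 0.59 from 22 to 6 °C (SE 0.13, adjusted p = 0.00437), 2.85-fold in all.

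Tap1 and Tap2 form the transporter that carries peptides into the endoplasmic reticulum. Tap1 stood at 44.4, 39.5, 55.6 and 53.6 CPM at 30 °C, 23.4, 22.7, 24.1 and 29.8 at 22 °C and 28.6, 24.0, 13.6 and 13.4 at 6 °C. Tap2 stood at 44.995, 48.1, 54.96 and 46.4 CPM at 30 °C, 38.5, 43.5, 46.6 and 50.3 at 22 °C and 35.7, 35.1, 27.0 and 24.6 at 6 °C. The subunits thus differed in the step in which they were called. The difference of the steps itself did not pass for Tap1 (0.62, SE 0.40, adjusted p = 0.274) or Tap2 (-0.43, SE 0.21, adjusted p = 0.15). Tap1 fell by 0.95 in the first step (SE 0.23, adjusted p = 0.00588), and of its 6 °C libraries those of mice 1 and 2 lay within the 22 °C range and those of mice 3 and 4 below it. Tap2 was -0.12 in the first step (adjusted p = 0.466) and fell by 0.55 in the second (SE 0.13, adjusted p = 0.00504). Without mice A and B the first step of Tap1 was not called (-0.75, adjusted p = 0.0806). Of the exon bases of Tap2, 18.5% lie under genes of the opposite strand, and whether counting used strand is not given in the sources used here.

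Tapbp encodes tapasin, which holds class I molecules next to the transporter while they load peptide. It stood at 147, 150, 188 and 175 CPM at 30 °C, 164, 152, 167 and 170 at 22 °C and 156, 151, 116 and 125 at 6 °C, and the groups overlapped. Its log2 fold change at 6 °C against 30 °C was -0.27 (SE 0.11, adjusted p = 0.046), and the call was lost without mice A and B (-0.10, adjusted p = 0.496) and with RLE scaling (-0.22, adjusted p = 0.0921). Per kilobase of exon, B2m was the highest of the 30 genes at every temperature, with 1130, 597 and 397 CPM per kb at 30, 22 and 6 °C. Tapbp stood at place 8 in that order at 30 °C and at place 6 at 22 and 6 °C. Of its exon bases, 24.9% lie under Gm19412 on the opposite strand.

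The classical class I heavy chains of this strain, H2-K1 (chromosome 17, 33996017 to 34000347) and H2-D1 (chromosome 17, 35262730 to 35267499), carry the antigen peptides that most CD8 T cells see. H2-K1 stood at 563, 522, 669 and 587 CPM at 30 °C, 386, 363, 476 and 408 at 22 °C and 305, 342, 239.6 and 249.7 at 6 °C. H2-D1 stood at 659, 594, 801 and 735 CPM at 30 °C, 406, 356, 488 and 406 at 22 °C and 285, 326, 237 and 221 at 6 °C. For both genes every library at 30 °C lay above every library at 22 °C, and these lay above those at 6 °C. H2-K1 fell by 0.52 in the first step (SE 0.13, adjusted p = 0.00458) and by 0.52 in the second (SE 0.13, adjusted p = 0.00664). H2-D1 fell by 0.75 (SE 0.14, adjusted p = 0.000765) and by 0.63 (SE 0.14, adjusted p = 0.00387), and by 1.38 in all, or 2.61-fold. The difference of the steps did not pass for H2-K1 (-0.01, SE 0.22) or H2-D1 (0.12, SE 0.24). Without mice A and B the first step of H2-K1 was -0.41 (adjusted p = 0.054).

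**Figure D2:**
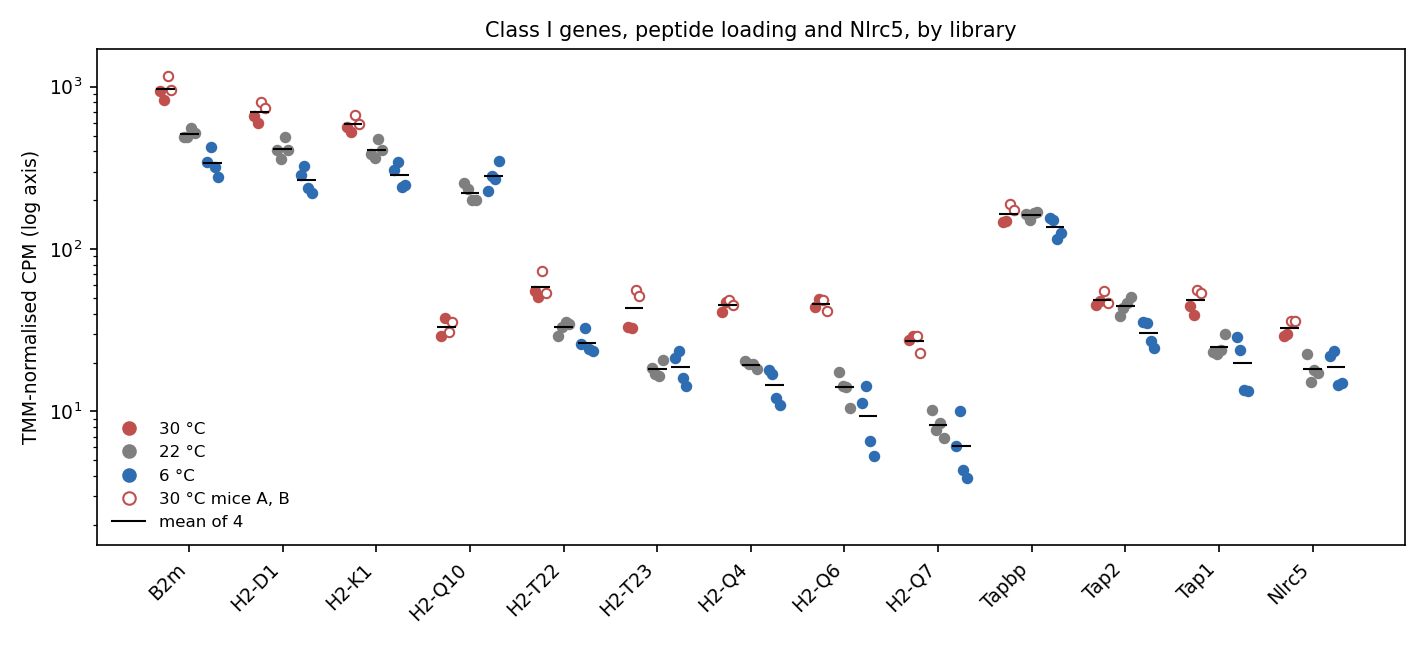
TMM-normalised CPM on a log axis for class I heavy chains, B2m, the loading genes and Nlrc5, 1 point per library, with open points for 30 °C mice A and B and bars for the mean of 4. H2-Q10 is the gene whose 22 and 6 °C points (201 to 349 CPM) lie above its 30 °C points (29.2 to 37.6 CPM).

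H2-Q10 (chromosome 17, 35470089 to 35474563) encodes a class I heavy chain that is secreted, known from liver and blood. It moved against its neighbours. Its level was 29.2, 37.6, 30.7 and 35.6 CPM at 30 °C, 255, 234, 202 and 201 at 22 °C and 229, 281, 269.9 and 349 at 6 °C. Every 22 and 6 °C library lay above the highest 30 °C library, while the ranges at 22 and 6 °C overlapped. H2-Q10 rose 6.69-fold from 30 to 22 °C (log2 fold change 2.74, SE 0.14, adjusted p = 1.97e-07) and was 8.47-fold higher at 6 °C than at 30 °C (3.08, SE 0.14, adjusted p = 1.52e-08). From 22 to 6 °C its log2 fold change was 0.34 (SE 0.13, adjusted p = 0.0556), which passed with RLE scaling (0.37, adjusted p = 0.0426). The second step differed from the first by -2.40 (SE 0.22, adjusted p = 5.08e-05).

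As a share of all counts on class I heavy chain genes, H2-Q10 made up 2.15% ± 0.416 at 30 °C, 19.4% ± 3.05 at 22 °C and 30.6% ± 6.56 at 6 °C (SD, n = 4). The shares ran from 1.71% to 2.69%, from 15.8% to 22.0% and from 24.7% to 39.0%, and the groups did not overlap. Per H2-K1 count there were 0.0459 to 0.0720 H2-Q10 counts at 30 °C, 0.424 to 0.660 at 22 °C and 0.750 to 1.40 at 6 °C. H2-Q10 thus had more counts than H2-K1 in 2 libraries, those of 6 °C mice 3 and 4. Per kilobase of exon its level was 7.66, 51.3 and 64.9 CPM per kb, which took it from place 16 among the 30 genes at 30 °C to place 5 at 22 °C and place 4 at 6 °C. Of the 50-base words of its exons, 19.1% also occur in another gene, 14.0% in H2-Q7, and H2-Q7 fell.

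Summed over the 29 class I heavy chain genes, the level was 1572 ± 170 CPM at 30 °C, 1159 ± 90.5 at 22 °C and 931 ± 105 at 6 °C (SD, n = 4). The ratio of 6 to 30 °C was 0.592 with H2-Q10 in the sum and 0.421 without it. Without H2-Q10, H2-K1 and H2-D1 the other 26 genes summed to 257 ± 24.1, 114 ± 4.91 and 97.3 ± 23.5 CPM. The sum is a description and was not tested.

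**Figure D3:**
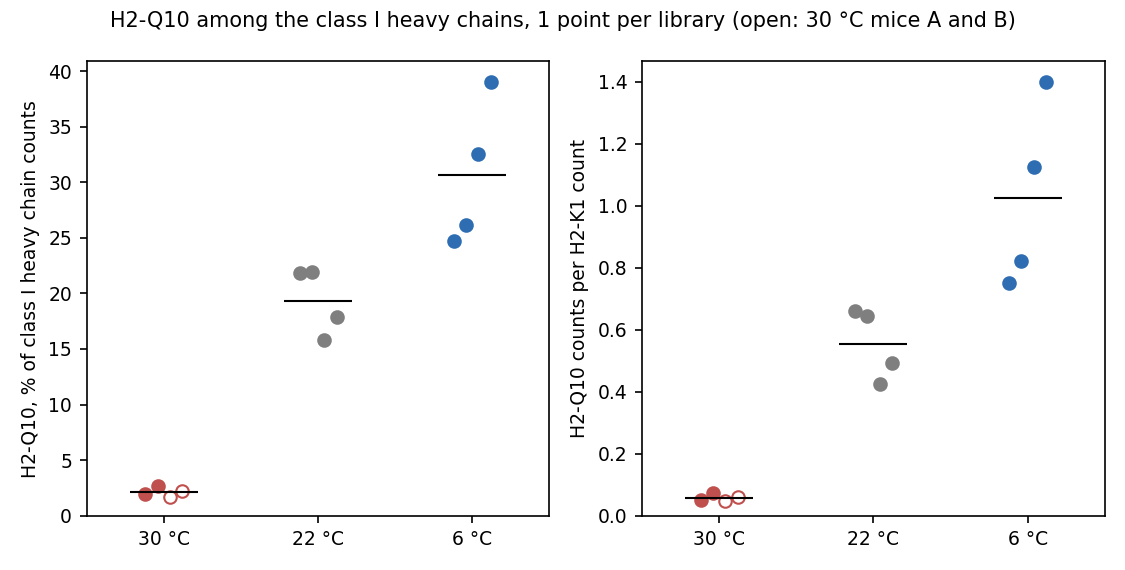
H2-Q10 as a percentage of all class I heavy chain counts (left) and its counts per H2-K1 count (right), 1 point per library, on linear axes from 0, with bars for the mean of 4. The share was 1.71% to 2.69% at 30 °C and 24.7% to 39.0% at 6 °C, with 22 °C between them.

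The other non-classical class I genes of the Q region lie beside H2-Q10. H2-Q6 and H2-Q7 encode Qa-2, a class I molecule that is held in the membrane by a lipid anchor. H2-Q4 stood at 40.7, 47.0, 48.5 and 44.9 CPM at 30 °C, 20.4, 19.6, 19.5 and 18.3 at 22 °C and 17.9, 17.1, 12.1 and 10.96 at 6 °C. H2-Q6 stood at 44.2, 49.4, 48.2 and 41.6 CPM at 30 °C, 17.5, 14.3, 14.2 and 10.5 at 22 °C and 11.2, 14.4, 6.58 and 5.35 at 6 °C. H2-Q7 stood at 27.6, 29.2, 29.3 and 22.97 CPM at 30 °C, 10.2, 7.63, 8.48 and 6.86 at 22 °C and 6.13, 10.0, 4.39 and 3.88 at 6 °C. For these genes all 30 °C libraries lay above all others, and mice A and B did not stand apart from mice 1 and 2.

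H2-Q4 fell by 1.22 from 30 to 22 °C (SE 0.14, adjusted p = 3.26e-05), H2-Q6 by 1.70 (SE 0.26, adjusted p = 0.000406) and H2-Q7 by 1.71 (SE 0.25, adjusted p = 0.000219). In the second step H2-Q4 fell by 0.42 (adjusted p = 0.0319), a call that was lost in 7 alternatives, such as without mice A and B (adjusted p = 0.0533). H2-Q6 and H2-Q7 did not pass there (-0.58 and -0.44), but both were lower without 6 °C mouse 2 (-0.86 and -0.79, adjusted p = 0.0181 and 0.00693). H2-Q5, annotated as a polymorphic pseudogene, fell by 2.16 at 6 °C against 30 °C from a mean of 8.20 CPM. Of the 50-base words of H2-Q4, H2-Q5, H2-Q6 and H2-Q7, 36.4%, 36.4%, 35.0% and 26.5% occur in another gene, and how reads with several matches were counted is not given in the sources used here. Of the exon bases of H2-Q4, 19.1% lie under Gm11131 on the opposite strand.

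The T region holds H2-T23, whose product Qa-1 is the ligand of inhibitory receptors on natural killer cells, and H2-T22, whose product is bound by some gamma-delta T cells. H2-T23 stood at 33.2, 32.8, 56.2 and 51.1 CPM at 30 °C, 18.6, 17.1, 16.4 and 20.7 at 22 °C and 21.4, 23.6, 16.1 and 14.3 at 6 °C. H2-T22 stood at 55.5, 50.9, 73.4 and 53.5 CPM at 30 °C, 29.2, 33.2, 35.8 and 34.7 at 22 °C and 25.9, 32.4, 24.1 and 23.4 at 6 °C. H2-T23 fell by 1.26 in the first step (SE 0.20, adjusted p = 0.00045) and was 0.06 in the second (adjusted p = 0.854), and the steps differed (1.31, SE 0.36, adjusted p = 0.0171). At 6 °C against 30 °C it fell by 1.20, or by 0.80 without mice A and B (adjusted p = 0.00362). H2-T22 fell by 0.81 in the first step (SE 0.13, adjusted p = 0.000311), and 29.4% of its exon bases lie under a gene of the opposite strand. It shares 53.5% of its 50-base words with other genes, 31.2% with H2-T10, which fell as well (by 1.54 at 6 °C against 30 °C, adjusted p = 7.99e-05).

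H2-T24 was the gene called higher from 22 to 6 °C, from a mean of 7.28 ± 1.67 to 11.7 ± 3.18 CPM (SD, n = 4, log2 fold change 0.69, SE 0.22, adjusted p = 0.0309). The ranges of 5.37 to 8.71 and 7.97 to 15.2 CPM overlapped. The call was lost without 22 °C mouse 2 or 3 or 6 °C mouse 1 or 2 (0.54 to 0.64). Against 30 °C neither group of H2-T24 passed. H2-M3, which presents bacterial peptides that start with formyl-methionine, fell by 1.40 at 6 °C against 30 °C (SE 0.19, adjusted p = 5.77e-05), from 8.91 ± 1.34 to 3.37 ± 0.979 CPM. H2-K2, an annotated pseudogene, fell by 0.66 (adjusted p = 0.0102, or 0.0502 without mice A and B), and H2-M9 fell by 1.11 (adjusted p = 0.00941).

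The 3 tested classical class II genes were all lower at 6 °C than at 30 °C, with a median log2 fold change of -2.43, beside a median of -1.21 for the classical class I genes. The difference between these groups was not tested. H2-Aa (chromosome 17, 34282744 to 34287823) and H2-Ab1 (34257689 to 34269419) encode the alpha and beta chain of the A molecule, the class II molecule that C57BL/6 cells show. H2-Aa stood at 134, 124, 247 and 266 CPM at 30 °C, 67.9, 50.1, 69.5 and 55.8 at 22 °C and 33.1, 37.5, 41.9 and 18.0 at 6 °C. H2-Ab1 stood at 121, 114, 216 and 228 CPM at 30 °C, 58.0, 41.2, 55.8 and 48.0 at 22 °C and 32.6, 37.8, 36.3 and 18.9 at 6 °C. H2-Eb1 (34305867 to 34316674), the beta chain of the E molecule, stood at 129, 122, 220.1 and 228 CPM at 30 °C, 63.1, 53.5, 64.0 and 59.5 at 22 °C and 35.5, 41.2, 50.3 and 30.6 at 6 °C. For each of the 3 genes the temperatures did not overlap, and at 30 °C mice A and B stood well above mice 1 and 2.

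From 30 to 22 °C H2-Aa fell by 1.66 (SE 0.31, adjusted p = 0.00132), H2-Ab1 by 1.74 (SE 0.28, adjusted p = 0.000521) and H2-Eb1 by 1.54 (SE 0.22, adjusted p = 0.000242). From 22 to 6 °C H2-Aa fell by 0.90 (SE 0.30, adjusted p = 0.0421), while H2-Ab1 (-0.69, adjusted p = 0.0722) and H2-Eb1 (-0.61, adjusted p = 0.050002) did not pass. That step was near the threshold for all 3. The call of H2-Aa was lost without any single 22 °C mouse and without 6 °C mouse 1, 2 or 4 (-0.70 to -0.98), and H2-Ab1 and H2-Eb1 were called without mice A and B (adjusted p = 0.0243 and 0.00463). At 6 °C against 30 °C the log2 fold changes of H2-Aa, H2-Ab1 and H2-Eb1 were -2.56, -2.43 and -2.15, and without mice A and B they were -1.96, -1.89 and -1.66, all called. The first step without these mice was -1.08, -1.21 and -1.06, also called.

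Cd74 (chromosome 18, 60803848 to 60812652) encodes the invariant chain, which fills the groove of new class II molecules and leads them to the compartment where peptides are loaded. It stood at 289, 284, 523 and 567 CPM at 30 °C, 149, 108, 135 and 123 at 22 °C and 74.2, 93.2, 98.8 and 53.4 at 6 °C, with no overlap between groups. Cd74 fell 3.23-fold in the first step (log2 fold change -1.69, SE 0.26, adjusted p = 0.000424) and 5.20-fold at 6 °C against 30 °C (-2.38, SE 0.27, adjusted p = 2.38e-05, or -1.83 without mice A and B). The second step was -0.69 (SE 0.26, adjusted p = 0.0594), and it passed with DESeq2 (-0.66, adjusted p = 0.019) and without mice A and B (-0.68, adjusted p = 0.0133).

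**Figure D4:**
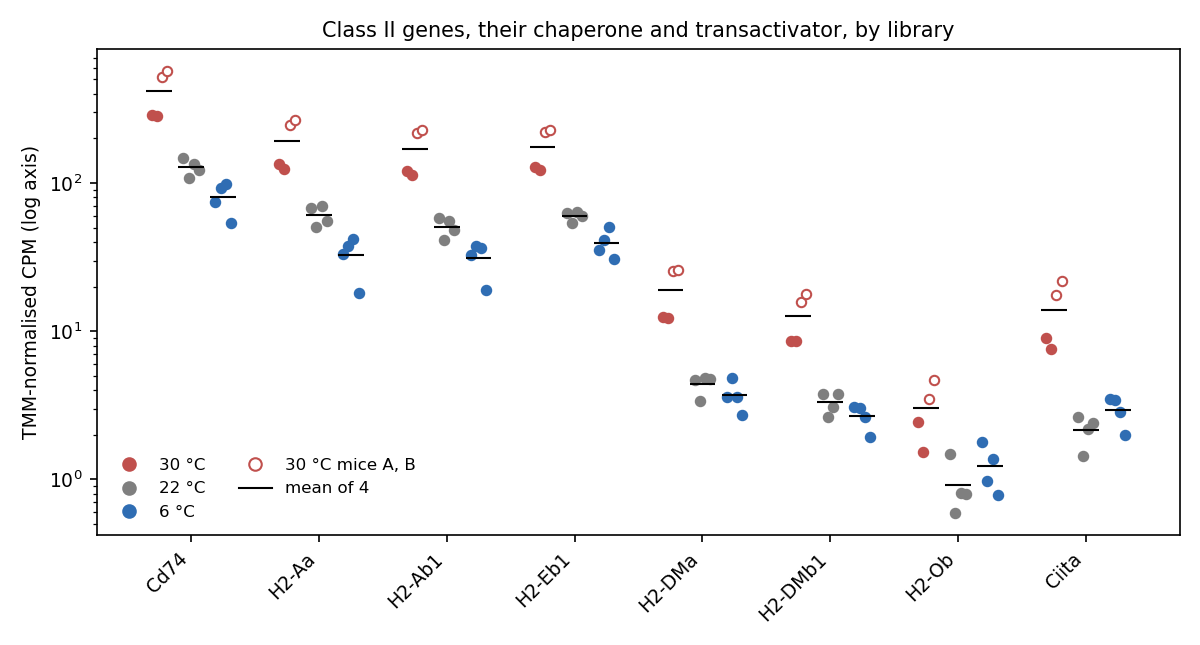
TMM-normalised CPM on a log axis for Cd74, the class II chains, H2-DMa, H2-DMb1, H2-Ob and Ciita, 1 point per library, with open points for 30 °C mice A and B and bars for the mean of 4. Mice A and B lie above mice 1 and 2 in each of these genes, and the 6 °C points of Ciita (1.99 to 3.49 CPM) overlap those at 22 °C (1.43 to 2.62 CPM).

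The non-classical class II genes act inside the cell. H2-DMa and H2-DMb1 form H2-DM, which removes the fragment of the invariant chain and exchanges peptides, and H2-Oa and H2-Ob form H2-O, which restrains H2-DM. H2-DMa fell from 19.1 ± 7.77 CPM at 30 °C to 4.42 ± 0.679 at 22 °C (SD, n = 4, log2 fold change -2.10, SE 0.28, adjusted p = 0.000119) and was 3.69 ± 0.873 at 6 °C (second step -0.26, adjusted p = 0.499). H2-DMb1 fell from 12.7 ± 4.79 to 3.31 ± 0.565 CPM (-1.94, SE 0.25, adjusted p = 9.09e-05) and was 2.68 ± 0.53 at 6 °C. Their range at 6 °C overlapped that at 22 °C, and mice A and B again stood highest at 30 °C. Without mice A and B the first step was -1.47 for H2-DMa and -1.38 for H2-DMb1, both called.

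H2-Ob fell by 1.73 in the first step (SE 0.37, adjusted p = 0.00222, or by 1.12 without mice A and B, adjusted p = 0.0486), from a mean of 3.03 ± 1.35 CPM. At 6 °C against 30 °C it fell by 1.30 (adjusted p = 0.00834), a call lost without mice A and B (-0.67, adjusted p = 0.176). H2-DMb2, a second beta chain gene, fell by 1.02 (adjusted p = 0.0146), likewise lost without them (-0.63, adjusted p = 0.2) and without mouse B alone (-0.80, adjusted p = 0.0567). H2-DMb2 passed the filter through the 30 °C libraries, all 4 of which were over 0.386 CPM, against 1 at 22 °C and 2 at 6 °C. It shares 21.2% of its 50-base words with H2-DMb1. For H2-DMa, H2-DMb1, H2-DMb2 and H2-Ob the steps differed, by 1.84, 1.65, 2.22 and 2.16 (adjusted p = 0.0147, 0.0159, 0.0164 and 0.0298). The difference was not called for H2-DMb2 and H2-Ob without mice A and B (adjusted p = 0.0572 and 0.0979).

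Ciita (chromosome 16, 10480059 to 10528418), the transactivator of class II genes, stood at 8.98, 7.64, 17.5 and 21.8 CPM at 30 °C, 2.62, 1.43, 2.19 and 2.42 at 22 °C and 3.49, 3.44, 2.87 and 1.99 at 6 °C. All 30 °C libraries lay above all others, and mice A and B were again the highest. Ciita fell 6.41-fold in the first step (log2 fold change -2.68, SE 0.34, adjusted p = 9.94e-05, or -1.93 without mice A and B). In the second step its value was 0.44 (SE 0.34, adjusted p = 0.34), where the classical class II genes stood at -0.61 to -0.90. The difference of the steps of Ciita was 3.12 (SE 0.62, adjusted p = 0.00328).

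Nlrc5 (chromosome 8, 94434356 to 94527272), the transactivator of class I genes, stood at 29.2, 29.9, 36.0 and 36.1 CPM at 30 °C, 22.6, 15.1, 18.1 and 17.3 at 22 °C and 22.0, 23.6, 14.5 and 15.1 at 6 °C. It fell by 0.84 in the first step (SE 0.17, adjusted p = 0.00141) and stood at 0.04 in the second (adjusted p = 0.871), where H2-K1, H2-D1 and B2m fell. Its steps differed by 0.89 (SE 0.30, adjusted p = 0.0394), which was lost without mice A and B (0.75, adjusted p = 0.127). Both transactivators were thus called lower in the first step and not called in the second.

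The other H2 symbols name genes of the same region with other functions. H2-Ke2, a subunit of the prefoldin chaperone, stood at 23.2, 26.2, 24.9 and 23.3 CPM at 30 °C, 30.7, 30.9, 25.4 and 30.3 at 22 °C and 24.5, 28.5, 26.2 and 29.3 at 6 °C. Its log2 fold change of 0.26 in the first step (SE 0.09, adjusted p = 0.0235) was 0.00 with total counts only and was not called without mice A and B (adjusted p = 0.128). H2-Ke6, a steroid dehydrogenase, was -0.26 at 6 °C against 30 °C (adjusted p = 0.313), and 86.4% of its exon bases lie under Gm20427 on the same strand. H2-Pa and H2-Pb are pseudogenes with at most 1 count in a library.

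Of the 19 genes not tested, 6 had 0 counts in all libraries and 15 had at most 5 counts in every library, these 6 included. The genes at 0 were H2-M10.1, H2-M10.3, H2-M10.4, H2-M10.5, H2-M10.6 and H2-Pa, and a count of 0 in the smallest library allows up to 0.164 CPM (3 counts, counting error only). The class II genes among the 19 were H2-Eb2, with 11 to 19 counts at 30 °C, 1 to 3 at 22 °C and 0 to 7 at 6 °C, and H2-Oa, with 5 to 29, 1 to 16 and 0 to 7 counts. H2-Q2 had 7 to 10 counts at 30 °C and 0 to 12 elsewhere. The 16 counts of H2-Oa and the 12 of H2-Q2 were those of 22 °C mouse 3, the most deeply sequenced library. In CPM H2-Q2 ran from 0.21 to 0.34 at 30 °C, 0.10 to 0.18 at 22 °C and 0 to 0.13 at 6 °C. H2-Oa ran from 0.20 to 0.91, 0.05 to 0.19 and 0 to 0.28 CPM. H2-T3, the thymus leukaemia antigen gene, had 0 to 3.

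The remaining steps of the pathway were followed in lists of genes. Their counts stand beside those over all genes tested, of which 25.3% were higher and 31.5% lower at 6 °C against 30 °C, 21.8% and 22.8% at 22 °C against 30 °C, and 16.9% and 17.4% at 6 °C against 22 °C, with medians of -0.11, -0.02 and -0.03. Of the 7 genes of the immunoproteasome and peptide trimming, which make the peptides for class I, 5 were lower and 0 higher at 6 °C against 30 °C, 3 lower and 1 higher at 22 °C against 30 °C, and 4 lower at 6 °C against 22 °C. The list's medians were -0.89, -0.15 and -0.39. Psmb8 and Psmb9, which replace catalytic subunits of the proteasome, fell by 1.56 and 1.65 at 6 °C against 30 °C (adjusted p = 0.000125 and 4.37e-05). Psmb10 fell by 1.07 (adjusted p = 0.000154), and Psme1, a subunit of the proteasome activator, fell by 0.89 (adjusted p = 1.31e-05), with 0.75 of this between 22 and 6 °C. The first step of Psmb9 (-0.86, adjusted p = 0.00482) was lost without mice A and B (-0.56, adjusted p = 0.0689).

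Of 6 chaperones that fold class I molecules 3 were higher and 0 lower at 6 °C against 30 °C, 1 was higher at 22 °C against 30 °C and 3 were higher at 6 °C against 22 °C, with medians of 0.27, 0.05 and 0.18. Over all genes 56.8%, 44.6% and 34.2% were called in these comparisons, so the list's share at 6 °C against 30 °C was near that of all genes. Canx (calnexin) rose by 0.68 at 6 °C against 30 °C (adjusted p = 2.79e-06) and Calr (calreticulin) by 0.34 (adjusted p = 0.00831), which with total counts only was 0.02 and not called. Pdia3, the disulfide isomerase of the loading complex, rose by 0.27 from 22 to 6 °C (adjusted p = 0.04). This call was lost with total counts only (0.22, adjusted p = 0.141), without any single 22 °C mouse and without 6 °C mouse 2 or 4. Ganab, a glucosidase, rose by 0.28 (adjusted p = 0.00347), but with total counts only it was -0.04 at 6 °C and -0.07 at 22 °C against 30 °C. These chaperones serve many other proteins of the endoplasmic reticulum.

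Of 9 genes of class II proteases and handling, 1 was higher and 3 lower at 6 °C against 30 °C, 6 were lower at 22 °C against 30 °C, and 5 were higher and 0 lower at 6 °C against 22 °C, with medians of -0.40, -0.97 and 0.42, while 56.8%, 44.6% and 34.2% of all genes were called in either direction. Ctss (cathepsin S), which trims the invariant chain, fell by 4.33 in the first step, from 178 to 8.87 CPM (adjusted p = 0.000526), and rose by 2.81 in the second, to 62.2 CPM (adjusted p = 0.00649). At 6 °C against 30 °C it was -1.52 (adjusted p = 0.0431), and 0.01 without mice A and B. Ifi30, the lysosomal thiol reductase GILT, fell by 1.38 and rose by 0.95 (adjusted p = 0.00415 and 0.0362). The call of its rise was lost with total counts only (0.90, adjusted p = 0.0526). It was also lost without 22 °C mouse 2, 3 or 4 and without 6 °C mouse 1, 2 or 4. March1, a ligase that takes class II molecules from the surface, fell by 2.09 in the first step (adjusted p = 0.000576). Ctsd, a general lysosomal protease, rose by 0.60 from 22 to 6 °C (adjusted p = 0.00139).

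MHC-like molecules outside the complex did not share one direction. Of 6 tested, 1 was higher and 2 lower at 6 °C against 30 °C, 2 were higher and 1 lower at 22 °C against 30 °C and 4 were lower at 6 °C against 22 °C, with medians of -0.0018, 0.17 and -0.47. Against 30 °C these shares were near the 56.8% and 44.6% of all genes called. Cd1d1, which presents lipids to natural killer T cells, rose by 0.97 in the first step (adjusted p = 1.26e-05) and fell by 0.42 in the second (adjusted p = 0.00341). Mr1, which presents vitamin B metabolites, fell by 1.26 from 22 to 6 °C (adjusted p = 7.3e-05). Procr, the endothelial protein C receptor, fell by 1.07 at 6 °C against 30 °C (adjusted p = 0.00031).

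Among 12 factors that bind MHC promoters 8 were lower at 6 °C and 5 at 22 °C against 30 °C, with 0 and 1 higher, and 1 was lower at 6 °C against 22 °C. Of all genes 31.5%, 22.8% and 17.4% were lower in these comparisons. The list's medians were -0.30, -0.12 and -0.14. Nfya, a subunit of the CCAAT-binding factor NF-Y, fell by 0.69 at 6 °C against 30 °C (adjusted p = 0.000121). Rela, a subunit of NF-kappa-B, which binds enhancer A, fell by 0.34 (adjusted p = 0.00527). Of 16 tested genes of the interferon-gamma route 11 were lower in each comparison against 30 °C, with 1 and 0 higher, and 2 were higher and 2 lower at 6 °C against 22 °C, with medians of -0.79, -0.75 and -0.03. Cxcl9, a chemokine, fell by 1.97 at 6 °C against 30 °C (adjusted p = 6.14e-06), Gbp2, a guanylate-binding protein, by 1.34 (adjusted p = 0.000742), and Irf1, which is in both lists, by 0.81 (adjusted p = 0.000874). The first steps of Gbp2 and Irf1 were lost without mice A and B (adjusted p = 0.134 and 0.224). Ifng itself did not pass the filter.

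Of 6 tested genes of co-stimulation 3 were lower at 6 °C and 5 at 22 °C against 30 °C with 0 higher, and 2 were higher and 1 lower at 6 °C against 22 °C, with medians of -0.86, -1.38 and 0.54. Of all genes 56.8%, 44.6% and 34.2% were called, and the list's share at 6 °C against 30 °C was near this. Of the 5 lower at 22 °C, 1 had a mean of 0.189 CPM there, under the filter's 0.386 CPM, against 0.768 CPM at 30 °C. Its call as lower was thus in part set by the filter. Cd86 fell by 1.56 in the first step (adjusted p = 0.000262) and was 0.04 in the second. Cd40 and Icam1 fell by 2.08 and 1.20 in the first step (adjusted p = 0.000586 and 0.00148) and rose by 1.40 and 1.05 in the second (adjusted p = 0.0114 and 0.00553). Cd274, which encodes the inhibitory ligand PD-L1, was -0.14 in the first step and fell by 1.18 in the second (adjusted p = 0.0035).

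Lists of markers of other cell types were followed in the same libraries. Of all genes tested 22.8% were lower at 22 °C and 31.5% at 6 °C against 30 °C. At 6 °C against 22 °C 16.9% of all genes were higher and 17.4% lower. All 9 dendritic cell markers were lower in each comparison against 30 °C, with a summed level of 54.8 to 86.0 CPM at 30 °C, 37.6 to 41.8 at 22 °C and 31.5 to 40.0 at 6 °C. Most of this sum was Zbtb46, with means of 41.4, 32.8 and 26.4 CPM at 30, 22 and 6 °C. Siglech (means of 1.27, 0.384 and 0.280 CPM) was under the filter's 0.386 CPM at 22 and 6 °C. Ccr7 (1.42, 0.335 and 0.537 CPM) was under it at 22 °C. The calls of these 2 markers as lower there were in part set by the filter. At 6 °C against 22 °C 1 dendritic cell marker was higher (Itgax, 1.53, adjusted p = 0.0041) and 1 lower (Zbtb46, -0.31, adjusted p = 0.01). Of 12 macrophage markers 11 were lower at 22 °C and 10 at 6 °C against 30 °C, and 4 were higher and 1 lower at 6 °C against 22 °C. Their summed level was 528, 543, 1384 and 1693 CPM at 30 °C, 154 to 214 at 22 °C and 237 to 477 at 6 °C. All 11 tested markers of T and natural killer cells were lower in each comparison against 30 °C (13.1 to 22.9 CPM summed at 30 °C, 3.34 to 5.02 at 22 °C and 1.84 to 4.51 at 6 °C). Cd3e, Cd3g, Cd8a, Cd8b1, Cd5, Ncr1 and Klrb1c had means under the filter's 0.386 CPM at 22 and 6 °C (Cd3e 1.01, 0.22 and 0.16 CPM at 30, 22 and 6 °C). They passed the filter mainly through the 30 °C libraries, so their calls as lower were in part set by the filter. Of 6 tested B cell markers 2 were lower at 22 °C and 3 at 6 °C against 30 °C, and their sum was 1.42 to 10.4 CPM over all libraries. These B cell shares were not above the 44.6% and 56.8% of all genes called in either direction. All 6 markers of fibroblasts and preadipocytes were lower in both comparisons against 30 °C, and 3 at 6 °C against 22 °C, with a summed level of 1332 to 2504 CPM at 30 °C, 602 to 867 at 22 °C and 451 to 553 at 6 °C. Of 7 endothelial markers 6 were lower at 22 °C and 5 at 6 °C against 30 °C (1213 to 1431, 788 to 937 and 867 to 956 CPM summed). The sum of 8 skeletal muscle markers ran from 7.15 to 3894 CPM over the libraries, and 0 of them were called by edgeR in any comparison of temperatures. The part of any of these cells in the results for the MHC genes was not tested.

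General leukocyte markers were set beside the class II genes. Of the 5 leukocyte markers 5 were lower at 22 °C and 4 at 6 °C against 30 °C, while 3 were higher and 0 lower at 6 °C against 22 °C, with summed levels of 124 to 343, 28.9 to 40.3 and 56.0 to 119 CPM at 30, 22 and 6 °C. Of all genes 22.8% and 31.5% were lower in the first 2 of these comparisons, and 16.9% were higher at 6 °C against 22 °C. Ptprc, which encodes the leukocyte surface protein CD45, stood at 37.0, 31.4, 65.6 and 75.9 CPM at 30 °C, 10.1, 5.66, 8.29 and 8.58 at 22 °C and 19.1, 23.03, 14.7 and 9.39 at 6 °C, and rose by 1.02 in the second step (adjusted p = 0.0411). The ratios that follow were chosen after the values had been seen. There were 7.47 to 9.04 Cd74 counts per Ptprc count at 30 °C, 14.3 to 19.1 at 22 °C and 3.89 to 6.74 at 6 °C, with no overlap between groups. The 30 °C ratios of mice A and B (7.98 and 7.47) lay beside those of mice 1 and 2 (7.81 and 9.04), although both genes were higher in A and B. Ciita held 0.243 to 0.287 counts per Ptprc count at 30 °C and 0.253 to 0.282 at 22 °C, which overlapped, and 0.149 to 0.212 at 6 °C, below both. B2m, of class I, was like Cd74 highest at 22 °C, with 48.4 to 86.3 counts per Ptprc count. It held 12.5 to 26.5 at 30 °C and 17.9 to 29.4 at 6 °C, which overlapped.

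**Figure D5:**
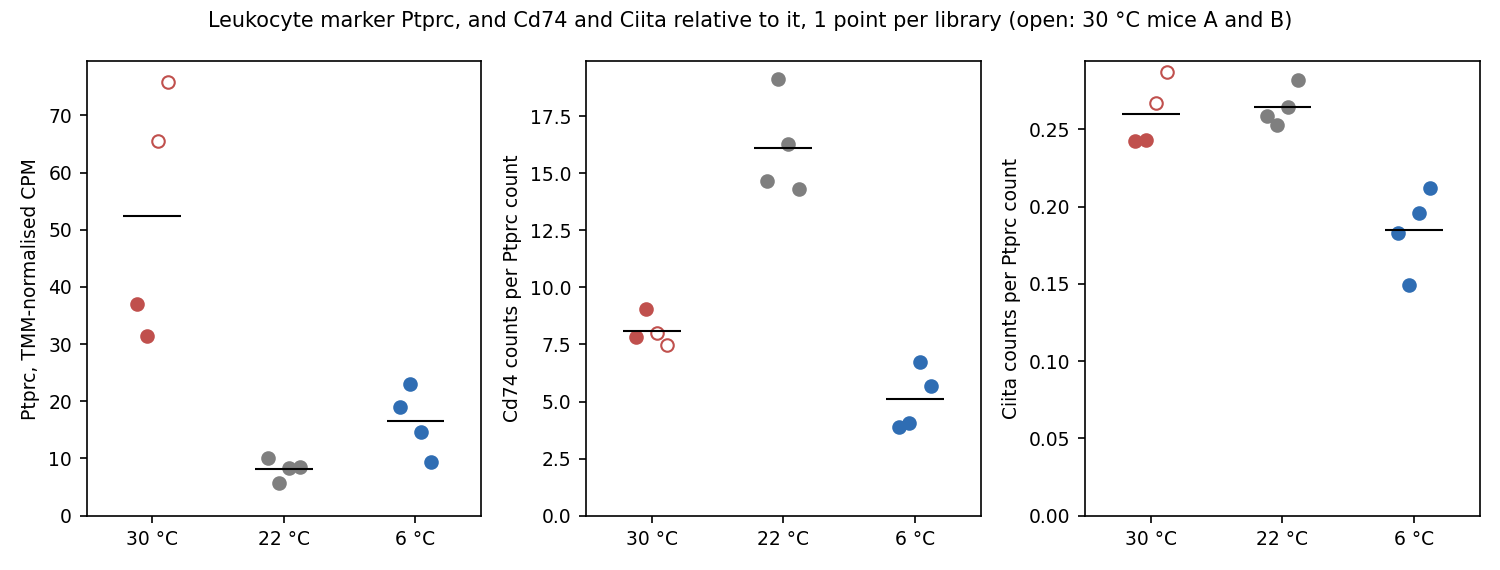
Ptprc in TMM-normalised CPM (left), Cd74 counts per Ptprc count (middle) and Ciita counts per Ptprc count (right), 1 point per library, on linear axes from 0, with bars for the mean of 4 and open points for 30 °C mice A and B. The Cd74 ratio was highest at 22 °C (14.3 to 19.1) and lowest at 6 °C (3.89 to 6.74).

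For 5 of the genes, those with the most similar pattern over the 12 libraries were sought among all genes tested. By Pearson correlation of log2 CPM, given as a description over libraries that share temperature and scaling, the genes most like Cd74 were H2-Ab1 (0.998), H2-Eb1 (0.996), H2-Aa (0.994), Ppfia4 (0.990) and Man2b1 (0.977). Those most like H2-Ab1 were Cd74, H2-Aa (0.996), H2-Eb1 (0.991), Lyl1 (0.984) and Adgre4 (0.984). B2m was most like H2-D1 (0.989), H2-T22 (0.984), Sri (0.980), H2-K1 (0.977) and Cers5 (0.974), and H2-K1 most like H2-D1 (0.993), Ifi27l2a (0.982), B2m, Gstm6 (0.970) and Plp2 (0.968). H2-Q10, added to this comparison after its values had been seen, had no MHC gene among its closest 5, which were Nadk (0.989), Pmvk (0.988), Dalrd3 (0.986), Mlf2 (0.985) and Uros (0.985).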

How the data were processed

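Brown fat RNA from 12 mice was sequenced, 4 per temperature. The authors deposited whole-number read counts per gene, raw and not normalised. Per the submitters' processing notes, the tools were STAR 2.4.2a, FastQC 0.10.1 and edgeR 3.14.0, with mm10 and GRCm38 as build names. For the counting tool, its strand setting and its treatment of reads with several matches, nothing is stated in the sources used here. The column names of 2 of the 30 °C libraries match no numbered mouse, so these libraries carry the temperature only. Replicates are separate mice per the labels. Libraries of one group differed by more than sampling noise (chi-square per degree of freedom 21.1 to 111), and 1 line that names no gene was left out.

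From the counts, edgeR 4.0.16 (R 4.3.3) filtered genes with filterByExpr, which left 14870, scaled libraries by TMM and fitted a robust quasi-likelihood model with temperature as the only factor over all 12 libraries. The model gave 3 comparisons and the difference of the 2 steps, each with Benjamini-Hochberg adjustment over all genes tested, and a call is an adjusted p under 0.05. The SE of a log2 fold change was taken from the F statistic. The fit was tested on simulated data. DESeq2 1.42.0, limma 3.58.1 (voom), other scalings and filters, a mouse-number block and leaving out libraries were alternatives. Exons, overlaps and shared 50-base words came from GENCODE M21 (GRCm38), and gene symbols matched for 96.6% of the IDs. Promoter windows came from RefSeq (GRCm38.p6).

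The genes, lists and tests were chosen with earlier results of these data known. MHC genes whose mean reaches 1 CPM are described singly, and those reaching 10 CPM, with Ciita and Nlrc5, by library. Of each pathway list, the 4 genes with the lowest p in any comparison may be named. Intervals and floors cover counting error only.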

Additional observations from a re-analysis of the deposited data

Results flagged for a closer look

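Of 87 groups of 4 libraries examined, 4 held a library whose gap to the nearest other was, as a share of the group's range, above Dixon's critical value, and chance flags about 1 in 20 groups. H2-DMa stood at 3.4 CPM in 22 °C mouse 2, against 4.70 to 4.81 CPM in the other 22 °C mice. H2-Ke2 stood at 25.4 CPM in 22 °C mouse 3, the most deeply sequenced library, against 30.3 to 30.9 CPM. H2-Ke6 stood at 1.85 CPM in 22 °C mouse 4, against 2.37 to 2.42 CPM, and at 1.21 CPM in 6 °C mouse 4, against 2.17 to 2.26 CPM.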

How the results depend on the processing

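The counts of MHC genes called against 30 °C stayed within 1.5 times their main value under every alternative, and leaving out 1 library gave 25 to 29 at 6 °C and 23 to 26 at 22 °C. From 22 to 6 °C the count of 7 was 11 with DESeq2, 4 at an adjusted p under 0.01, 0 with a change of at least 2-fold as well, and 4 to 9 when a library was left out (4 without 22 °C mouse 2 or mouse 3); 13 genes had an unadjusted p under 0.05. Of 2845 refits of single MHC values, 2673 kept direction and side of the threshold, 69 gained a call, 103 lost one and 0 reversed. Of 2561 refits of the named pathway genes, 2406 kept both, 40 gained a call, 110 lost one and 5 reversed. With total counts only, the log2 fold change of Ganab was -0.0390 at 6 °C and -0.0702 at 22 °C against 30 °C (adjusted p 0.615 and 0.393). That of Ctss at 6 °C against 30 °C was 0.00547 without mice A and B (adjusted p 0.992). The causes were not tested. Scaling by total counts shifted the median of all genes by -0.32 (6 °C) and -0.26 (22 °C) against 30 °C, with 1939 genes higher and 7888 lower at 6 °C (3767 and 4677 with TMM) and 1419 and 6224 at 22 °C (3248 and 3386 with TMM); at 6 against 22 °C it gave 1996 and 3088 (2511 and 2580 with TMM) and for the steps 3007 and 1275 (2126 and 2227 with TMM). The MHC genes split 1 higher and 27 lower, and 1 higher and 25 lower (1 and 26, and 2 and 22, with TMM).

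With the mouse number as a replicate block, over the 10 libraries with a number, 19 MHC genes were called at 6 °C and 19 at 22 °C against 30 °C and 11 at 6 °C against 22 °C, where the same libraries without the block gave 24, 22 and 10, with the filter on low counts applied anew to these libraries, which tested 31 MHC genes. In the blocked fit the log2 fold change at 6 °C against 30 °C was 0.26 for Ctss (adjusted p 0.564) and 0.54 for Ifi30 (adjusted p 0.0134). Nothing in the labels says that the numbers pair mice across temperatures. The deviations of same-numbered libraries correlated at -0.15 to 0.23, with 3 of 8 pairs over 0.1, against 7 of 24 pairs of unlike number. Between 22 and 6 °C, 1 of 8 libraries was closest to its own number. So few pairs cannot exclude a pairing.

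Of the differences between steps, those of H2-Q10 and Ciita were called in all 13 leave-outs, and those of H2-T23, H2-Q4, H2-Q7, H2-DMa, H2-DMb1, H2-DMb2, H2-Ob and Nlrc5 were lost without 22 °C mouse 2. Mice A and B stood above mice 1 and 2 in all 4 of Cd74, H2-Aa, H2-Ab1 and H2-Eb1 (for H2-Aa 247 and 266 against 134 and 124 CPM). With 4 mice per group, calls from 22 to 6 °C lie near the threshold: Cd74 was called in 4 of 13 leave-outs and H2-Aa in 6 of 13.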
